A study of Mus musculus with 7 samples.

Results

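The MHC class I pathway was described here through 10 genes: the heavy chains H2-K1, H2-D1 and H2-T23, their light chain B2m, the peptide loading genes Tap1, Tap2 and Tapbp, the immunoproteasome genes Psmb8 and Psmb9, and the transactivator Nlrc5. They were chosen by name as known parts of this pathway, and all 10 were found among the 35976 genes of the count table. RNA-seq had been done on 7 libraries of amygdala cells from male C57BL/6J mice, 4 given the sgRosa guide against the Rosa26 locus (the control) and 3 given sgEgfr, a guide against the epidermal growth factor receptor gene Egfr. In every mouse an adeno-associated virus carried the guide and Cas9, the latter under the astrocyte promoter GfaABC1D, and was left to express for more than 2 weeks before tube restraint for 7 days, fear conditioning (1 day) and extinction training (3 days). Both groups thus shared the vector, Cas9 and the stress, and no unstressed or uninjected animals were analysed here. These sources give no age for the mice. Astrocytes were enriched from papain-digested tissue by magnetic sorting for ACSA-2, which they carry on their surface.

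MHC class I molecules show peptides from inside the cell to CD8 T cells and natural killer cells. Proteasomes cut the peptides, the TAP1 and TAP2 proteins pump them into the endoplasmic reticulum, and tapasin (Tapbp) holds the waiting heavy chain and B2m close to that pump until a peptide binds. Interferons raise the whole set through factors that include IRF1 and NLRC5, and they swap the catalytic subunits of the proteasome for inducible ones. In the resting brain the pathway is low in neurons and better seen in microglia and endothelial cells.

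The class I promoters carry the short elements through which these signals act, and those of the heavy chains and the light chain are shown because the 3 genes were the most abundant per transcript length here and yet varied differently between samples. RefSeq promoter windows (GRCm38.p6, 250 bases before each start) existed for 8 of the 10 genes, and 4 motifs were searched on both strands. These were the NF-kB consensus, the IRF core AANNGAAA, the CRE-like core TGACG bound by CREB and ATF proteins next to the RFX and NLRC5 site, and the CCAAT box of NF-Y. Matches are in capitals in the sequences below, 5′ to 3′ on the strand of the gene. The first stretch is chr17:34000348-34000468, minus strand, just before the farther upstream of the 2 starts that the promoter windows give for H2-K1. The RefSeq extent of H2-K1 reaches farther upstream, to 34000619, so this stretch lies inside it. The second stretch is chr2:122147540-122147685, plus strand, just before the start of B2m.
H2-K1: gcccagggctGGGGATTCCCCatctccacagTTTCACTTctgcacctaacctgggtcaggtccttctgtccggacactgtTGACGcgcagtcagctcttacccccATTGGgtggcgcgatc
B2m: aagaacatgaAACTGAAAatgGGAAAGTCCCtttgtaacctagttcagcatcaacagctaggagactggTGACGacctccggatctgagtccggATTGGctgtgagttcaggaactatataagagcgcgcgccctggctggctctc

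H2-D1 held the same 4 elements in the same order as H2-K1, and from the NF-kB match to the first CCAAT box 89 of 100 bases were identical between them. The NF-kB and IRF matches of H2-D1 are shown alone (chr17:35262923-35262951, plus strand), since GENCODE places an exon over the rest, beside the matching stretch of H2-K1 (chr17:34000430-34000458, minus strand).
H2-D1: GGGGATTCCCCatctcctcagTTTCACTT
H2-K1: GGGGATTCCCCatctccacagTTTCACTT

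In H2-K1 and H2-D1 the NF-kB element comes first and the IRF core lies on the opposite strand, whereas in B2m the order is reversed and the IRF core lies on the strand of the gene. All 4 motifs were found in these 3 genes, and in 0.067% of all 32851 windows of the same length. Singly, the NF-kB consensus was in 3.9% of all windows, the IRF core in 21.3%, the CRE-like core in 17.8% and the CCAAT box in 33.8%. Among the 8 genes, the IRF core was also in H2-T23, the CRE-like core also in Tap1 and Psmb9, whose windows overlap, and the CCAAT box also in Tapbp, Tap1, Psmb9 and H2-T23. The window of Psmb8 held none of these letters, which says only that they are not in these bases. A match is a description and not a bound site.

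The libraries held 5852870 to 22579222 counts, so that 3 counts stood for 0.133 to 0.513 CPM (counts scaled to a common library size, here with TMM factors). Between sgRosa 3 and sgRosa 4 the difference barely exceeded what counting alone gives (chi-square 1.04 per degree of freedom, against 14.8 to 158 for the other 20 pairs), so they were counted as 1 sample, the sum sgRosa 3+4, leaving 3 samples per group. Since the labels did not tie each library to its own mouse, p-values measure only the spread between these samples, which may be technical. Egfr itself was counted 188, 55, 109 and 58 times in sgRosa 1 to 4, against 169, 87 and 184 times in sgEgfr 1 to 3, with no difference detected (log2 fold change -0.13, SE 0.54, edgeR adjusted p = 0.997, positive in some of the alternative fits). Where in Egfr the guide cuts is not known from these sources, and this level therefore does not check the labels. Markers of astrocytes summed to 4540 to 12300 CPM per sample and those of oligodendrocytes to 70300 to 159000 CPM, so the labelled cell type was present but not pure. In such bulk samples fewer cells of a type and less RNA per cell cannot be told apart.

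All 10 genes were detected and passed the filter on low counts, and their levels spanned a wide range. Per kb of transcript, B2m stood highest at 106 ± 50.4 CPM per kb, followed by H2-D1 at 51.8 ± 10.8, H2-K1 at 32.0 ± 4.52 and Tapbp at 20.4 ± 2.67 (SD, n = 6 samples). Tap2 lay at 5.45 ± 2.12 CPM per kb, Psmb8 at 2.53 ± 1.01, Tap1 at 1.2 ± 0.438, Psmb9 at 0.781 ± 0.327, H2-T23 at 0.62 ± 0.2 and Nlrc5 at 0.102 ± 0.0733. B2m, the classical heavy chains H2-D1 and H2-K1 and tapasin were thus above the peptide pump, the inducible proteasome subunits and the transactivator, while the nonclassical H2-T23 was below all of these but Nlrc5. In this order the sample ranges of B2m and H2-D1 overlapped, as did those of Tap2 and Psmb8, Psmb8 and Tap1, Tap1 and Psmb9, and Psmb9 and H2-T23, while the other neighbours did not overlap. Lengths are those of the longest protein-coding transcript in GENCODE vM21, so the order depends on that choice of isoform.

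**Figure D1:**
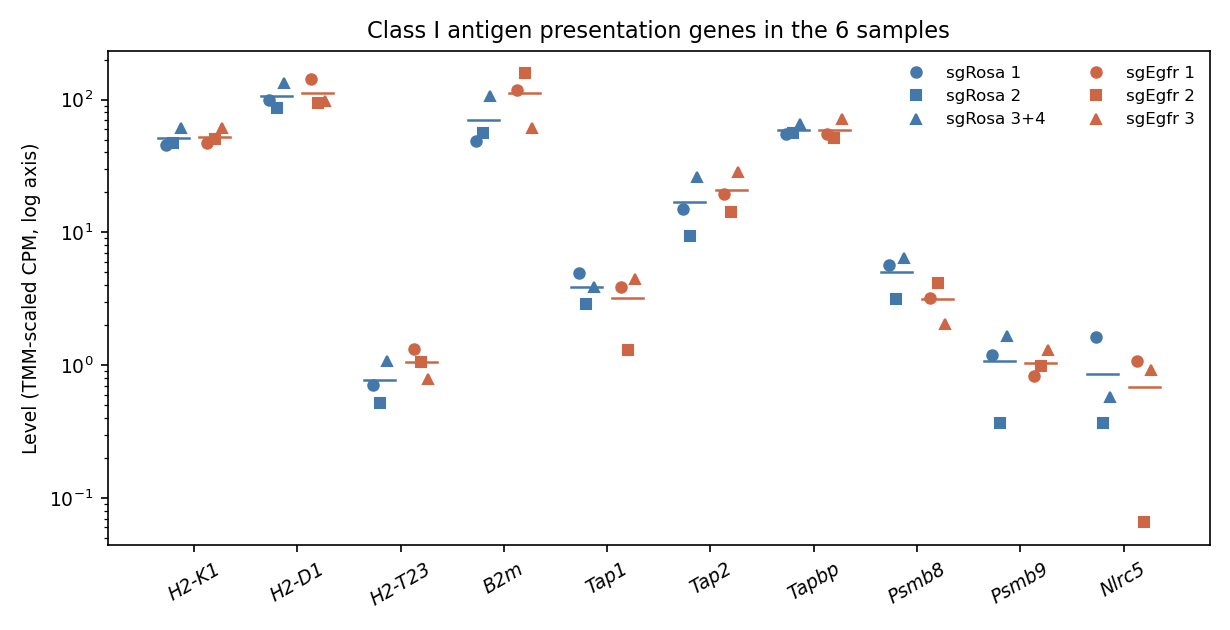
Level of each of the 10 genes (CPM, log axis) in the 3 sgRosa samples (blue) and the 3 sgEgfr samples (orange), with horizontal lines at the group means. In every gene the points of the groups overlap, and Nlrc5 in sgEgfr 2, at 0.0655 CPM, is the lowest point.

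The classical heavy chains, which present peptides to T cells, were the steadiest part of the set together with tapasin. H2-K1 (chromosome 17, 33996012 to 34000619) had levels of 45.2, 46.7 and 61.6 CPM in sgRosa 1, 2 and 3+4, and in sgEgfr 1 to 3 these were 46.9, 50.1 and 60.6 CPM. The highest sample of each group was nearly equal, and the groups overlapped almost fully. H2-D1 (chromosome 17, 35263094 to 35267497) stood in sgRosa at 99.0, 87.0 and 133 CPM, and in sgEgfr at 142, 94.7 and 98.0 CPM, so that 1 sample stood up in each group. Their log2 fold changes in sgEgfr against sgRosa were 0.037 (SE 0.18, 95% confidence interval -0.38 to 0.46) and 0.069 (SE 0.23, -0.47 to 0.60), both with an edgeR adjusted p of 0.997. The high samples were not the same for the 2 genes: H2-D1 counts were 3.03 times those of H2-K1 in sgEgfr 1 and 1.62 times in sgEgfr 3, against 1.86 to 2.19 in the other 4 samples.

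H2-T23 encodes Qa-1, a nonclassical heavy chain that signals to the NKG2A receptor of natural killer cells. It lies on chromosome 17 from 36029977 to 36032701 and was near the limit of detection, with counts of 10, 10, 9 and 8 for sgRosa 1 to 4, against 21, 16 and 18 for sgEgfr 1 to 3. In CPM the mean was 0.770 ± 0.285 with sgRosa, against 1.06 ± 0.272 with sgEgfr (SD, n = 3 each), with overlapping groups and a log2 fold change of 0.45 (SE 0.51, edgeR adjusted p = 0.997). Heavy chain counts also depend on how reads shared between near-identical genes were assigned, on which these sources are silent. Of the 50-base stretches of the transcript, 28.8% occurred in another gene for H2-T23, 14.3% for H2-D1 and 8.79% for H2-K1, chiefly in H2-Q and H2-T genes and, for H2-K1, in H2-D1. At 100 bases the shares were 7.28%, 4.64% and 0%.

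B2m, the light chain without which the heavy chains do not reach the surface, varied far more than they did. It lies on chromosome 2 from 122147687 to 122153082 and reached 49.0, 55.6 and 107 CPM in sgRosa 1, 2 and 3+4, against 119, 158 and 61.1 CPM in sgEgfr 1 to 3. The highest value was in sgEgfr 2 and the lowest in sgRosa 1, but sgEgfr 3 fell among the sgRosa samples. The log2 fold change of 0.68 (SE 0.41, -0.27 to 1.62) did not pass the test (edgeR adjusted p = 0.997, unadjusted p = 0.137). It was positive in all 19 alternative fits, from 0.25 to 1.11. The ratio of B2m counts to the summed counts of H2-K1 and H2-D1, which does not depend on scaling between libraries, ran from 0.340 in sgRosa 1 to 1.09 in sgEgfr 2, a span of 3.21 times, and was 0.416, 0.549, 0.632 and 0.385 in sgRosa 2, sgRosa 3+4, sgEgfr 1 and sgEgfr 3.

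The peptide pump and its bridge to the heavy chain behaved unequally. Tap1 (chromosome 17, 34187556 to 34197225) measured 4.94, 2.87 and 3.88 CPM in the sgRosa samples, against 3.87, 1.31 and 4.42 CPM in the sgEgfr samples, with sgEgfr 2 clearly lowest at 20 counts. Tap2 (chromosome 17, 34204479 to 34216321), the other subunit of the pump, measured 15.1, 9.41 and 26.0 CPM with sgRosa, against 19.6, 14.2 and 28.3 CPM with sgEgfr. Its low sample was sgRosa 2, and its high samples were sgRosa 3+4 and sgEgfr 3. Tap2 counts were 3.06 to 10.8 times those of Tap1, lowest in sgRosa 1 and highest in sgEgfr 2. The log2 fold changes were -0.28 (SE 0.50) for Tap1 and 0.30 (SE 0.41) for Tap2, each with an edgeR adjusted p of 0.997. Tapbp (chromosome 17, 33919478 to 33929290) was the least variable of the 10, at 55.1, 55.7 and 65.7 CPM with sgRosa, against 54.7, 51.4 and 71.4 CPM with sgEgfr, with a log2 fold change of 0.0089 (SE 0.17, -0.39 to 0.41).

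Psmb8 and Psmb9 encode the inducible proteasome subunits that replace Psmb5 and Psmb6 and favour peptides suited to class I. Together with Tap1 and Tap2 they form a gene cluster on chromosome 17 from 34182030 to 34216321, in which the RefSeq starts of Psmb9 and Tap1 point away from each other across 225 bases. Psmb8 (34198195 to 34201454) measured 5.65, 3.14 and 6.42 CPM with sgRosa, against 3.23, 4.19 and 2.05 CPM with sgEgfr. The highest samples were sgRosa 3+4 and sgRosa 1, the lowest was sgEgfr 3, and sgRosa 2 lay within the sgEgfr range. Its log2 fold change of -0.68 (SE 0.42, -1.66 to 0.30) did not pass the test (edgeR adjusted p = 0.997, unadjusted p = 0.146). Psmb9 (34182030 to 34187330) was counted only 17, 7, 19 and 7 times in sgRosa 1 to 4, against 13, 15 and 30 times in sgEgfr 1 to 3, and its log2 fold change was -0.028 (SE 0.61, adjusted p = 0.998).

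The count of each inducible subunit relative to the constitutive subunit it replaces was compared between the guides as a ratio within each library. Psmb8 stood at 42.8%, 19.6% and 29.2% of the Psmb5 count in sgRosa 1, 2 and 3+4 and at 15%, 16.8% and 9.94% in sgEgfr 1 to 3. The groups did not overlap, and the mean log2 ratio was 1.10 lower in sgEgfr (-2.88 ± 0.40 against -1.78 ± 0.56, SD, n = 3 each; two-sided p = 0.1 by exact permutation, which is the lowest value 3 against 3 allows, and 0.3 adjusted over the 3 ratios). The ratio joined a lower Psmb8 with a Psmb5 log2 fold change of 0.39 (SE 0.23), neither of them past the test. As background, 7.61% of single genes had levels that did not overlap between the groups, and 3.85% did so with sgEgfr lower, which are shares of genes and not of ratios. Psmb9 stood at 0.829%, 0.235% and 1.03% of the Psmb6 count in sgRosa and at 0.513%, 0.546% and 0.887% in sgEgfr, with overlapping groups (log2 difference 0.10, exact permutation p = 0.9). Psmb10, the third inducible subunit, stood at 41.1%, 15.6% and 32.9% of the Psmb7 count in sgRosa and at 26.6%, 20.9% and 29.8% in sgEgfr (log2 difference -0.12, exact permutation p = 0.8). sgRosa 2 had the lowest ratio of all samples for Psmb9 and Psmb10 but not for Psmb8. The sign of the Psmb9 and Psmb10 differences depended on single libraries: without sgRosa 2 that of Psmb9 was -0.56 and without sgEgfr 3 -0.15, and without sgRosa 1 that of Psmb10 was 0.17 and without sgEgfr 2 0.03.

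**Figure D2:**
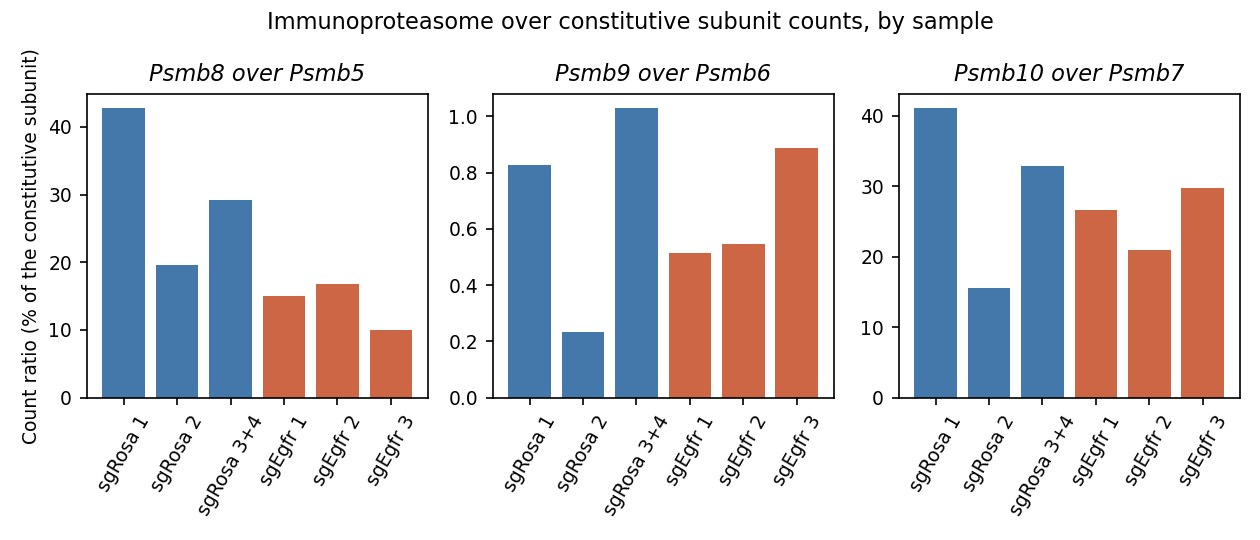
Count of each inducible proteasome subunit as a percentage of the constitutive subunit it replaces, 1 bar per sample (sgRosa blue, sgEgfr orange), on axes that start at 0 and differ between panels. For Psmb8 over Psmb5 the 3 sgEgfr bars, 9.94% to 16.8%, lie below all sgRosa bars, and for the other ratios the groups overlap.

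Nlrc5, the transactivator that drives class I genes from the nucleus, was the least abundant. It lies on chromosome 8 from 94434335 to 94527272 and was counted 23, 7, 5 and 4 times in sgRosa 1 to 4, against 17, 1 and 21 times in sgEgfr 1 to 3. The samples thus ran from 0.0655 CPM in sgEgfr 2, resting on a single read, to 1.62 CPM in sgRosa 1, and the counts were too few to resolve a change between the guides (log2 fold change -0.28, SE 0.93, 95% confidence interval -2.43 to 1.88, edgeR adjusted p = 0.997).

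Over the whole set, 6 of the 10 genes had positive and 4 negative log2 fold changes with a median of 0.023, against a median of 0.020 over the 14936 genes tested. By edgeR 0 of the 10 were called at an adjusted p under 0.05, where 0% of all genes were called, and 0 had an unadjusted p under 0.05, where 2.68% of all genes did. DESeq2 and limma-voom called 0 genes in all, with 500 and 418 at an unadjusted p under 0.05. In 0 of the 10 did the groups separate without overlap, where 7.61% of all genes did so. The 95% intervals rest on the spread between these samples and refer to the mixed RNA, so they do not bound a change within astrocytes alone. For H2-K1 and Tapbp they end at log2 changes of 0.46 and 0.41 upwards and -0.38 and -0.39 downwards. Those of B2m, Psmb8, Tap1, Psmb9 and Nlrc5 are wider. The direction was the same in every alternative fit that tested them for B2m, H2-T23, Tap2 and Psmb8 only, but single libraries set the size. B2m was 0.33 without sgEgfr 2, H2-T23 was 0.23 without sgRosa 2 and 0.25 without sgEgfr 1, Tap2 was 0.0062 without sgEgfr 3 and 0.0078 without sgRosa 2, and Psmb8 was -0.45 without sgEgfr 3. Those of H2-K1, H2-D1, Tapbp, Tap1, Psmb9 and Nlrc5 turned in at least 1, and the values are given in the closing section.

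**Figure D3:**
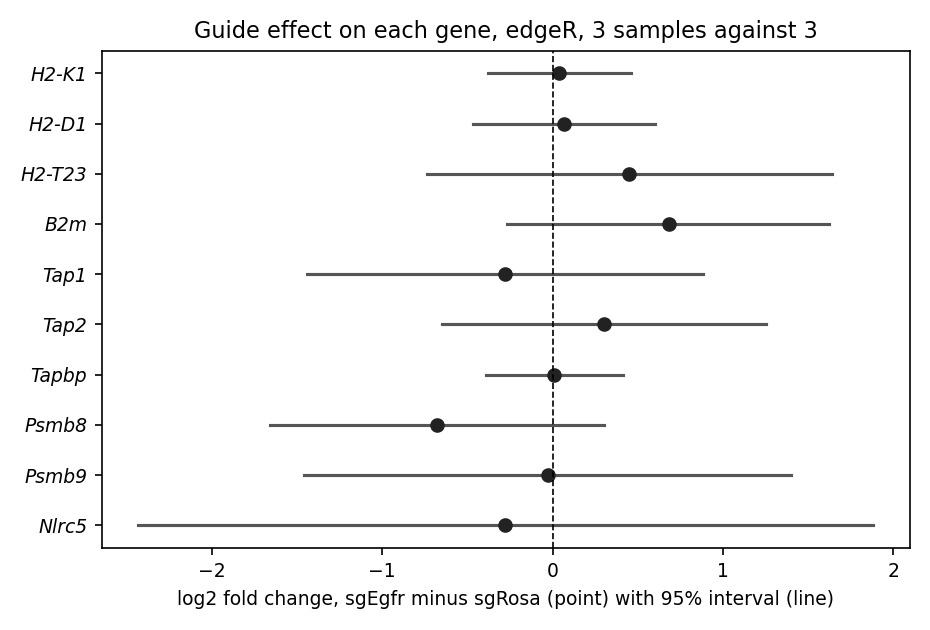
Log2 fold change of sgEgfr against sgRosa for each gene (points) with its 95% confidence interval (lines), from edgeR on 3 samples against 3. All 10 intervals include 0, and those of H2-K1 and Tapbp are the narrowest, at -0.38 to 0.46 and -0.39 to 0.41.

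Most of the variation lay between samples with the same guide. The coefficient of variation over the 6 samples was 13.1% for Tapbp, 14.1% for H2-K1 and 20.8% for H2-D1, 32.2% for H2-T23, 36.5% for Tap1, 38.8% for Tap2, 40.2% for Psmb8, 41.9% for Psmb9 and 47.4% for B2m, and 72.1% for Nlrc5. These values include counting error, which is largest for H2-T23, Psmb9 and Nlrc5, at 30 counts or fewer in every library. After each gene was standardised, the mean of the 10 was highest in sgRosa 3+4 (0.80 SD) and lowest in sgRosa 2 (-0.90 SD), with 0.27 SD in sgEgfr 1 and sgEgfr 3, -0.06 SD in sgRosa 1 and -0.38 SD in sgEgfr 2. The astrocyte marker score (15 of 15 markers) had the same lowest and highest sample, at 0.038, -0.89 and 0.47 in sgRosa 1, 2 and 3+4 and 0.25, -0.027 and 0.17 in sgEgfr 1 to 3, and its part in the profile was not tested. The genes did not move as 1 block, since in sgEgfr 2 B2m stood at 1.34 SD and Tap1 and Nlrc5 at -1.89 and -1.70 SD. That value of Tap1 rested on 20 counts and that of Nlrc5 on 1. Of genes outside all lists with a mean of at least 10 CPM, those most like the mean profile were Fam198a, Sall3 and Pld2 (Pearson r = 0.99 each) and Ndufs6 and Prodh (r = 0.98 each). This is a description over 6 samples from 8921 candidates.

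**Figure D4:**
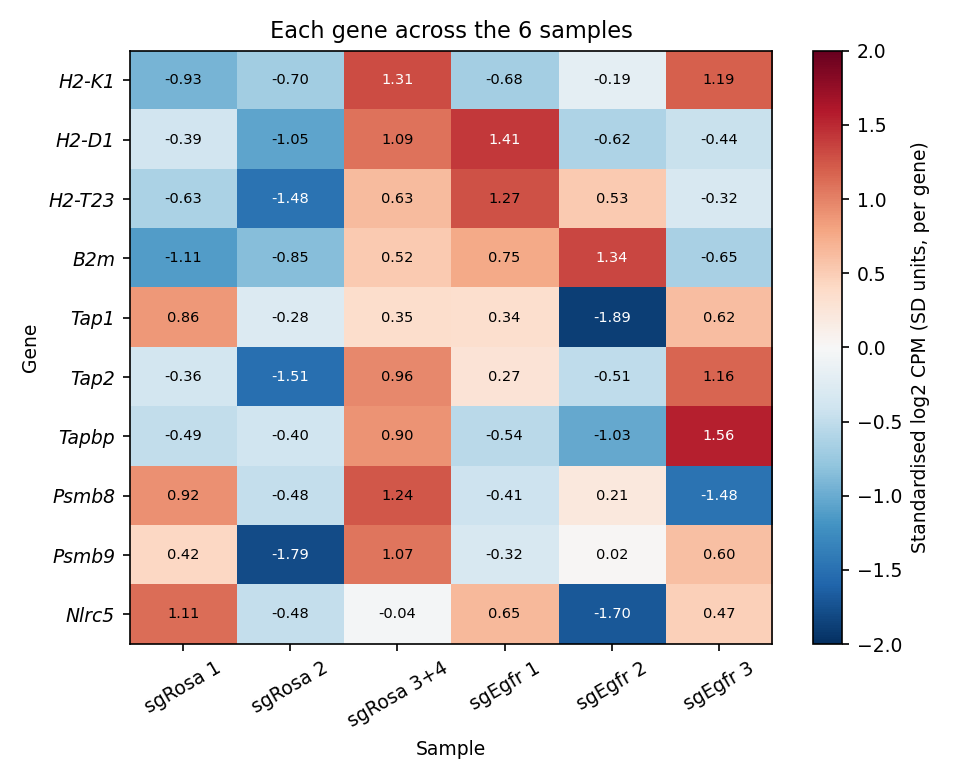
Standardised log2 CPM of each gene (rows, in SD of that gene) in each sample (columns), with the value written in each cell. sgRosa 2 holds the lowest cell of H2-D1, H2-T23, Tap2 and Psmb9, while sgEgfr 2 holds the highest of B2m and the lowest of Tap1, Tapbp and Nlrc5.

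Because microglia and endothelial cells carry much class I message in brain, the 10 genes were set against the content of these cells. The microglial score, the mean log2 CPM of 20 microglia markers such as Cx3cr1, P2ry12 and Csf1r, was -0.71, 0.27 and -0.13 in sgRosa 1, 2 and 3+4 and 0.0083, 0.92 and -0.36 in sgEgfr 1 to 3. The summed markers were at 213 to 402 CPM in sgRosa and 260 to 619 CPM in sgEgfr, and none of the 20 was absent. B2m was higher where the score was higher, with a slope of 0.88 log2 units per unit of the score (SE 0.32, 0.13 to 1.64). Tap1 ran the other way, with a slope of -1.17 (SE 0.33, -1.94 to -0.39). Its level was 4.94 CPM in sgRosa 1, with the lowest score, and 1.31 CPM in sgEgfr 2, with the highest. In between, sgRosa 3+4 and sgEgfr 1 were practically equal at 3.88 and 3.87 CPM. Nlrc5 also had a negative slope, -2.33 (SE 0.66, -3.87 to -0.78).

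These slopes did not pass the test over all genes, with edgeR adjusted p of 0.358 for B2m and 0.328 for Tap1 and Nlrc5 (unadjusted 0.0277, 0.00861 and 0.0087). They were 3 of 10 genes with an unadjusted p under 0.05, where 12.7% of all genes had one (6.01% with a positive and 6.72% with a negative slope), and 0% of all genes passed the adjusted threshold with edgeR. DESeq2 called 494 genes and limma-voom 0 (2380 and 1664 at an unadjusted p under 0.05). The DESeq2 calls included none of the 7 members to which it gave an adjusted p, of which Tap1 was lowest at 0.0553, and it gave none for H2-T23, Psmb9 and Nlrc5. All 3 slopes leaned on sgEgfr 2: without it they were -0.73 for Tap1 (unadjusted p = 0.157), 0.75 for B2m (0.316) and -1.73 for Nlrc5 (0.0976), and without sgRosa 1 that of B2m was 0.73 (unadjusted p = 0.117). With the guide as a second term the slopes were 0.74 for B2m, -1.18 for Tap1 and -2.48 for Nlrc5.

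For the other 7 genes no relation was detected with the score as the only term. The slopes were -0.051 (SE 0.17) for H2-K1, -0.10 (SE 0.23) for H2-D1 and -0.17 (SE 0.15) for Tapbp, and -0.48, -0.17, -0.46 and 0.19 for Tap2, Psmb8, Psmb9 and H2-T23, all with an unadjusted edgeR p above that of B2m. The microglia markers themselves, which define the score, had a median slope of 1.04. Other cell content moved with the same score: 12 of 12 oligodendrocyte markers had a positive slope (median 0.62, 7 with an unadjusted p under 0.05), and the ependymal and choroid plexus markers had a median slope of -4.44. The heat shock genes scored -0.72, 0.027 and -0.012 in sgRosa 1, 2 and 3+4 and 0.035, 0.43 and 0.24 in sgEgfr 1 to 3. Their lowest and highest samples were those of the microglial score, but sgEgfr 3 was high here and low on the microglial score (-0.36). What set the heat shock level was not tested. The part of these other contents in the slopes of B2m, Tap1 and Nlrc5 was not tested beyond a fit with the heat shock score as a second term, chosen after the data were seen, in which the slopes were 0.68 (unadjusted p = 0.265), -1.31 (0.0343) and -2.34 (0.0522). In that fit the slope of Tap2 was -1.28 (unadjusted p = 0.0174), against -0.48 without the second term, and no slope of the 10 passed the adjusted threshold.

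**Figure D5:**
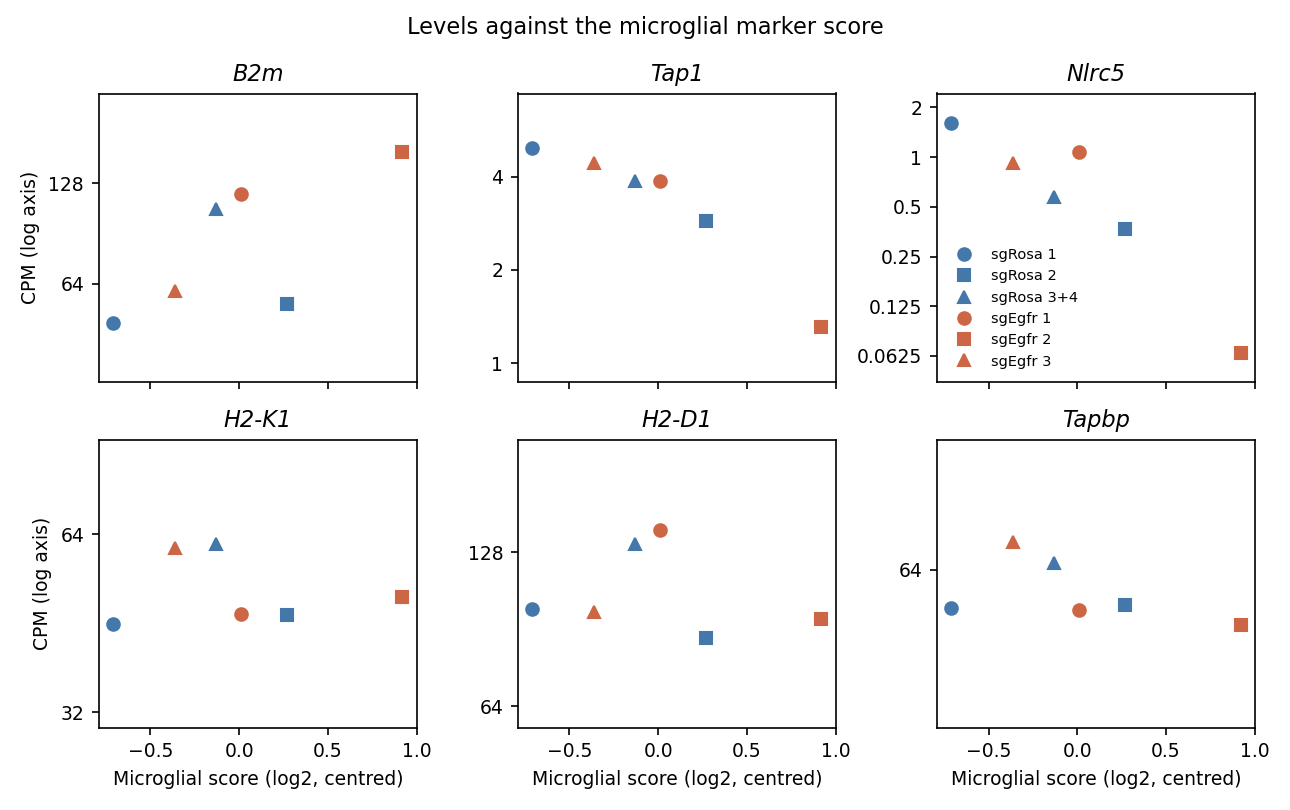
Level of 6 genes (CPM, log axes) against the microglial score (mean log2 CPM of 20 markers, centred), 1 point per sample, sgRosa in blue and sgEgfr in orange. Tap1 falls with the score from 4.94 to 1.31 CPM, B2m is highest at the highest score, and H2-K1, H2-D1 and Tapbp show no trend.

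With the endothelial score no relation was detected, though this score was the weaker of the 2. The endothelial score, from 19 markers such as Cldn5, Pecam1 and Cdh5, was 0.34, -0.52 and -0.58 in sgRosa 1, 2 and 3+4 and 0.19, 0.43 and 0.14 in sgEgfr 1 to 3. The 20 markers summed to 114 to 157 CPM in sgRosa and 161 to 192 CPM in sgEgfr. These sums did not overlap between the groups, as 7.61% of single genes did not, but the scores did, with sgRosa 1 above sgEgfr 1 and sgEgfr 3. The separation of the sums rested on the marker Mfsd2a, at 14, 21 and 32.2 CPM in sgRosa and 51.4, 35.1 and 39.7 CPM in sgEgfr. Without Mfsd2a the sum of sgRosa 1 would lie above those of sgEgfr 1 and sgEgfr 3. The score spanned 1.01 log2 units, against 1.64 for the microglial score. Of its 19 markers, 7 had an unadjusted edgeR slope p under 0.05, against 18 of the 20 microglia markers on theirs. Each marker is part of the score it was set against, so these counts only describe how closely the markers of a list moved together. All 11 neuron markers tested also rose with the endothelial score (median slope 0.84, 4 with an unadjusted edgeR p under 0.05), and their part was not tested. The slopes of the 10 genes ran from -0.23 (SE 0.57) for Psmb8 to 0.94 (SE 1.23) for Nlrc5, and 4 were positive. Those of H2-K1, H2-D1 and B2m were -0.16 (SE 0.22), -0.10 (SE 0.29) and 0.38 (SE 0.56), and that of B2m was -0.48 with the guide as a second term and -0.28 without sgEgfr 2. By edgeR 0 of 10 had an unadjusted p under 0.05, where 1.25% of all genes did, and 0% were called. DESeq2 called 4 genes and limma-voom 0 (247 and 225 at an unadjusted p under 0.05).

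With the microglial score as a covariate the log2 fold change of B2m between the guides was 0.32 (edgeR adjusted p = 0.944), against 0.68 without it, and with the endothelial score it was 0.97 (adjusted p = 0.960). That of Psmb8 was -0.81 and -0.91 in these fits. Tap1 stood at 0.027 with the microglial and -0.35 with the endothelial score, and Nlrc5 at 0.46 and -0.67, so their sign depended on the covariate. The guide was called for 0 of the 10 genes in either fit.

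The other genes of the pathway gave no calls between the guides either. Of 15 further class I heavy chain genes, 4 passed the filter and 3 of these were positive. Mr1, which presents vitamin metabolites, had the smallest p, with a log2 fold change of 0.79 (SE 0.44), and measured 7.76, 4.70 and 12.3 CPM with sgRosa, against 13, 9.03 and 20.6 CPM with sgEgfr. H2-Q10, H2-T3 and H2-M2 had no count in any library. Of 9 further loading and trimming genes 4 were positive, with Pdia3, the disulphide isomerase of the loading complex, at 0.35 (SE 0.22). All 5 further immunoproteasome and activator genes were positive, with Pomp, the assembly factor, at 0.17 (SE 0.16) and Psmb10 at 0.17 (SE 0.32), and so were the 3 constitutive subunits, with Psmb5 at 0.39 (SE 0.23), Psmb6 at 0.085 and Psmb7 at 0.38. Of all 14936 genes tested, 7895 were positive, and genes that vary together are not separate counts of a sign.

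Among 19 interferon receptors, kinases and transcription factors that act on class I genes, 10 were positive, 9 negative and 0 called. Nfkb1 had the smallest p, with a log2 fold change of -0.48 (SE 0.31). Irf1, an interferon-induced transcription factor, measured 8.61, 4.81 and 6.80 CPM with sgRosa, against 6.91, 6.35 and 8.53 CPM with sgEgfr (log2 fold change 0.11, SE 0.32). Its groups overlapped. Of the genes of these lists that passed the filter, none had an unadjusted edgeR p under 0.05, where 2.68% of all genes did. None had levels that separated the groups, where 7.61% of all genes did. With shares this small, few would be looked for in lists of this length. Below the filter, H2-Q6 (0.141 to 0.523 CPM in sgRosa, 0 to 0.131 CPM in sgEgfr) and H2-T10 (0.0523 to 0.127 CPM, then 0.196 to 0.831 CPM) did separate, at counts too low for the test. So did the class II gene H2-Ob (0 to 0.157 CPM in sgRosa, 0.219 to 0.655 CPM in sgEgfr). The share of all genes below the filter that separate was not computed.

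Among class II genes, which professional antigen-presenting cells use, sgEgfr 1 was the highest sample for 5 of the 6 that passed the filter. Cd74, the invariant chain, measured 27.5, 18.3 and 17.6 CPM with sgRosa, against 61.1, 5.56 and 5.64 CPM with sgEgfr, so that sgEgfr 1 stood highest and the other 2 sgEgfr samples lowest of all. H2-Aa, with the smallest p of the list, was at 11 CPM in sgEgfr 1 and 1.18 to 3.6 CPM elsewhere (log2 fold change 0.65, SE 0.78). H2-DMa, which helps load class II peptides, was the exception, at 4.55 CPM in sgEgfr 3 and 3.68 CPM in sgEgfr 1. sgEgfr 1 was also the sample with the highest H2-D1 and H2-T23, while its microglial score was near the middle. Blood markers were highest there too, with a sum of 769 CPM, then 624 CPM in sgRosa 3+4 and 3.81 to 249 CPM elsewhere. Markers of perivascular macrophages were highest in sgRosa 2, with a sum of 28.5 CPM, then 23.5 CPM in sgEgfr 1 and 10.5 to 13.4 CPM elsewhere. The class II genes summed to 98.4 CPM in sgEgfr 1, but to 38 CPM in sgRosa 3+4 and 29.6 CPM in sgRosa 2. The part of either cell content in these levels was not tested. Markers of T and natural killer cells, the cells that read class I, were close to the floor: only 1 of the 12 genes counted passed the filter (Lck, log2 fold change -0.84, SE 0.51, groups not overlapping), Cd8a, Gzma and Ncr1 had no count in any library, and the list summed to 3.37 to 5.02 CPM in sgRosa and 1.78 to 2.10 CPM in sgEgfr.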

How the data were processed

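The authors deposited raw counts of reads for each gene in 7 libraries, once as a joint table and once library by library, and both held equal values. Per the submitters' processing notes the build was mm10 and the tools included STAR 2.7.5c, fastp 0.23.2 and featureCounts 2.0.1. For the annotation, the strand setting and multi-mapping reads, nothing is stated in these sources. Reads carried no stated molecular identifiers, so limits from counts cover counting error only.

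Members, lists and tests were chosen with earlier results of these data known. All 10 genes were named, with the smallest-p gene of each further list, the partner genes Psmb5, Psmb6, Psmb7 and Psmb10, and Cd74 and Irf1, and 1 gene that the rule also names is not reported here; ratios and single examples beyond these were chosen after their values were seen. Genes were filtered with filterByExpr (minimum count 10, minimum total 15), scaled with TMM and tested by quasi-likelihood (glmQLFTest; edgeR 4.0.16, R 4.3.3), with Benjamini-Hochberg adjustment over 14936 genes and calls at an adjusted p under 0.05. SEs are the log2 fold change divided by the root of F. Scores are the mean log2 CPM (prior count 2) of the markers that passed the filter, tested as the only term. Alternatives used DESeq2 1.42.0, limma 3.58.1, other scaling, filters, covariates, a replicate block and left-out libraries. Positions and promoters come from RefSeq (GRCm38.p6), to which 90.3% of the table's symbols matched, and figures were drawn with matplotlib 3.10.9.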

Additional observations from a re-analysis of the deposited data

How the results depend on the processing

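The guide called 0 genes in all 19 alternative fits, and no alternative called the guide or a slope for any of the 10 genes that it tested. The filter at a mean of 5 CPM left 5 of them, and DESeq2 gave no adjusted p for the microglial slopes of H2-T23, Psmb9 and Nlrc5. Changes of sign are given here as log2 values, and their cause was not tested. With 7 libraries as separate samples H2-K1 was -0.034, H2-D1 -0.011, Tapbp -0.042 and the Psmb9 over Psmb6 ratio -0.04. Library totals only gave -0.022 for Tapbp. limma-voom gave -0.00063 for Tapbp, 0.26 for Psmb9 and 0.18 for Egfr. With sgRosa 3 and 4 both left out Psmb9 was 0.44 and Egfr 0.019, with endothelial slopes of 0.038 for H2-K1, 0.17 for H2-D1 and 0.68 for Psmb8. With the microglial score as a covariate Tap1 was 0.027, Psmb9 0.21, Nlrc5 0.46 and Egfr 0.39. The heat shock score as a covariate, chosen after seeing the data, gave -0.11 for H2-K1, -0.042 for Tapbp, 0.27 for Tap1, 0.11 for Psmb9, 1.28 for Nlrc5 and 0.67 for Egfr, and as a second term microglial slopes of -0.026 for H2-T23 and 0.71 for Psmb8. With the guide as a second term the microglial slope of Psmb8 was 0.22, and the endothelial slopes of Psmb8 and B2m were 0.42 and -0.48. With summed markers the endothelial slope of H2-D1 was 0.025.

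The labels do not say whether numbers shared between groups pair the samples, and the main fit did not pair them. Deviations of same-numbered samples correlated at -0.11, 0.52 and 0.55. Differently numbered samples were not compared, so these values cannot settle it. With the replicate block Tapbp was -0.0016, Psmb9 0.11 and Egfr 0.060, the other genes kept their sign, 0 genes were called, and 705 against 401 had an unadjusted p under 0.05.

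With each library left out in turn, the log2 fold change between the guides ran from -0.078 to 0.11 for H2-K1, -0.14 to 0.15 for H2-D1, -0.15 to 0.081 for Tapbp, -0.59 to 0.072 for Tap1, -0.45 to 0.23 for Psmb9, -0.73 to 0.56 for Nlrc5 and -0.55 to 0.27 for Egfr. The sign turned without sgRosa 1 for H2-K1, Tapbp, Psmb9, Nlrc5 and Egfr, without sgRosa 2 for H2-K1, H2-D1 and Tapbp, without sgRosa 3 for Psmb9 and Tapbp, without sgEgfr 1 for H2-D1 and Psmb9, without sgEgfr 2 for Tap1, Nlrc5 and Egfr, and without sgEgfr 3 for H2-K1 and Tapbp. Microglial slopes ran from -0.22 to 0.021 for H2-K1, -0.27 to 0.12 for H2-D1 and -0.53 to 0.20 for Psmb8 (turning without sgEgfr 3, sgEgfr 2 and sgRosa 1), and endothelial slopes from -0.28 to 0.69 for B2m and -0.54 to 0.024 for Psmb8 (turning without sgEgfr 2 and sgRosa 3). The Psmb9 over Psmb6 difference ran from -0.56 to 0.35 and that of Psmb10 over Psmb7 from -0.53 to 0.17.

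The number of genes called on the microglial score was 0 with edgeR on all samples, 494 with DESeq2, 226 with the heat shock score as a second term and 0 to 135 with each library left out (135 without sgRosa 1). DESeq2 called 4 on the endothelial score. Genes at an unadjusted p under 0.05 for the guide numbered 685 without a filter, 960 without sgRosa 3 and 4, 684 without sgEgfr 3, 236 when sgRosa 1 was left out and 171 with heat shock as a covariate; for the endothelial score they numbered 297 to 614 in the alternatives that moved them by more than 1.5 times. Depth limits H2-T23, Psmb9 and Nlrc5 most, with 30 counts or fewer in every library.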
